A study of Mus musculus with 18 samples.

Results

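The genes described here were the protein-coding genes with the longest spans on the mouse autosomes. A gene was a member when its identifier mapped in the GENCODE M21 annotation of mm10 to an autosomal protein-coding gene whose end minus start was above 500 kb. This gave 215 members among 20774 autosomal protein-coding genes and 54446 genes of all kinds in the count files, after 3 genes above this span were left out by the rule. Apart from a gene left out by name, the rule used position, biotype and span and no read count. It was set with earlier results of these data known. The members' spans ran from 501.8 kb to 4435 kb with a median of 731.5 kb, and 53 exceeded 1000 kb. Exons covered a median of 1.20% of the span in a median of 23 exon blocks. Members lay on all 19 autosomes, 117 of them on the plus strand.

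Nascent RNA was measured in mouse embryonic stem (mES) cells, which are pluripotent cells grown here with LIF and inhibitors of GSK3 and MEK, and in the same kind of cell lacking TET2, the dioxygenase that oxidizes 5-methylcytosine. The 6 groups were WT and *Tet2*-KO cells given 1 mM 5-ethynyl uridine (EU), a uridine analogue that enters new RNA, for 10, 20 or 40 min, with 3 dishes in each. EU-labelled RNA was captured through biotin, ERCC transcripts (synthetic RNAs that serve as an external standard) were added in proportion to total RNA, and 18 stranded libraries were sequenced. All groups received EU, so there was no unlabelled control, and WT and *Tet2*-KO were each represented by 1 line obtained from another laboratory. P-values therefore measured the spread between dishes of these lines and not between independent knockouts. The cells had been passaged on gelatin to clear feeder cells, of which fibroblast markers are given beside the results they touch.

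Each library held 17931614 to 23069143 reads on genes and 44162 to 512186 reads on ERCC transcripts. Levels below are in RPM, a gene's reads per M gene reads of its library. *Tet2* itself had 589 to 741 RPM in WT and 530 to 643 RPM in *Tet2*-KO, so transcription of the locus was retained and the genotypes are those of the labels. The 8 pluripotency markers summed to 2872 to 3053 RPM in WT and to 2093 to 2210 in *Tet2*-KO. At 10 min the WT and *Tet2*-KO means were 530 and 105 RPM for *Zfp42* and 1060 and 775 for *Tfcp2l1*. Only *Pou5f1* was higher in *Tet2*-KO at that time, at 82.1 compared with 77.7 RPM. *Sox2* was listed at 0 because its whole span lies inside another gene of its strand.

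Genes of this length consist almost entirely of intron, and RNA polymerase needs far longer than an EU pulse to travel from their first to their last exon. A short pulse therefore labels RNA along whichever part of the gene polymerases occupied. Many such genes encode adhesion molecules, channels and scaffolds of neurons and are nearly silent in pluripotent cells, and several overlie common fragile sites, regions that break under replication stress.

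The counts covered introns as well as exons. Of 710 genes that sit inside an intron of a member on its own strand, 0 had a read in any library, whereas 309 of 579 on the opposite strand did. This is the pattern that arises when reads are counted over whole gene bodies by strand and bases shared by 2 genes are set aside. Levels are therefore given per kb of own span, which is the part of a gene not shared with another gene of its strand. In 12 members more than 10% of the span was shared, among them *Foxp1* with 44.4%, *Gm20388* with 33.9% and *Fgfr2* with 27.7%. No read was counted for 3 members (*Gm42416*, *Gm37013* and *Gm37388*), whose span is wholly shared, and *Iqschfp* and *Schip1*, nearly wholly shared, were too low to test. The remaining 210 members entered the tests with 19910 genes in all, 193 of them had a mean of at least 50 reads per library and 59 had at least 1000.

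Very long genes were sparsely covered. They made up 18.1% of the summed span of autosomal protein-coding genes but drew on average 2.29% of the reads on those genes and 2.03% of all gene reads. The median member had 0.0160 RPM per kb of own span. The median gene of 50 to 100 kb had 0.616 and that of 200 to 500 kb had 0.109. Reads were concentrated in few members: the exocyst subunit *Exoc4* held 9.55% of them, the top 10 held 47.1% and the top 50 held 88.8%.

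**Figure D1:**
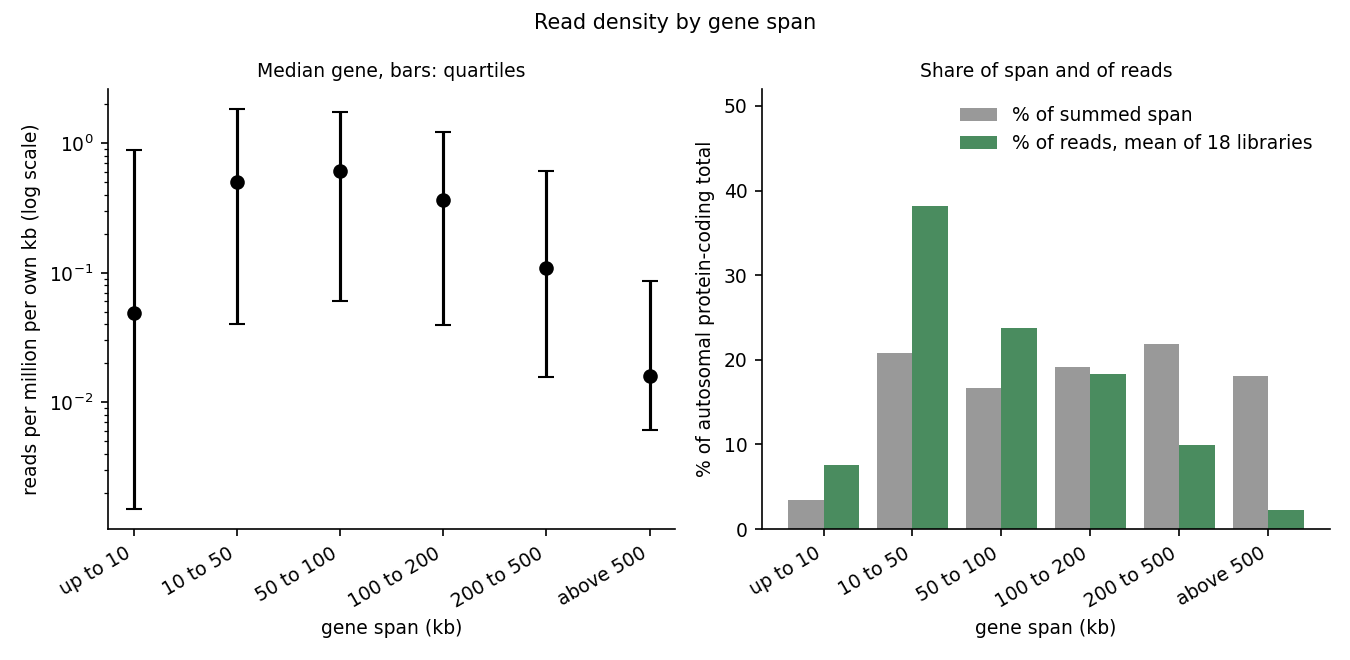
Left, median RPM per kb of own span (log axis) for autosomal protein-coding genes in 6 classes of span in kb, with bars from the lower to the upper quartile of genes. Right, each class's percentage of the summed span and of reads. The class above 500 kb had 18.1% of the span and 2.29% of the reads.

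*Exoc4* (ENSMUSG00000029763, chr6:33249085-33973979, plus strand, 724.9 kb) was the most densely read member, at 2.68 RPM per own kb. It was followed on that scale by *Etl4*, the mouse sickle tail gene, at 1.62, the scaffold *Magi1* at 1.46, the lysine methyltransferase *Smyd3* at 1.44 and the receptor phosphatase *Ptprg* at 1.43. The upper quartile of all members was 0.0864, and that of genes of 50 to 100 kb was 1.75. Ranked per kb of exon instead, the 10 highest ran from 153 down to 81.7 RPM per exon kb and included *Exoc4*, *Hs6st3*, *Immp2l*, *Etl4*, *Smyd3*, *Ptprg*, *Magi1* and *Gm20388*. *Hs6st3*, a heparan sulphate sulfotransferase, and *Immp2l*, a mitochondrial inner membrane peptidase subunit, stood high in that order because their exons made up 0.234% and 0.197% of the span.

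The 5 longest members were *Gm20388* (4435 kb), the receptor kinase *Fgfr2* (2961 kb), the receptor phosphatase *Ptprd* (2271 kb), the contactin-associated protein gene *Cntnap2* (2245 kb) and the neural adhesion gene *Lsamp* (2197 kb). Both leading spans come from the annotation used: RefSeq places *Fgfr2* in 104.4 kb and holds no match for *Gm20388*. RefSeq held 210 of the 215 members, and 202 of these exceeded 500 kb there too. At the lower edge, *Edil3*, *Dock1*, *Car10*, *Stpg2* and *L3mbtl4* lay just above the threshold at 501.8 to 506.3 kb. *Pde1c*, *Dnm3*, *Cacna1e*, *Abca13* and *Gabrb1* lay just below it at 490.9 to 499.3 kb, and their 3.19 to 27.7 RPM fell inside the range of the members just above, 1.01 to 532.

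Promoter windows of 300 bases (250 before and 50 after the start, RefSeq, GRCm38.p6, the same build as mm10) were available for 162 members, and in 126 the window lay within 1 kb of the GENCODE start. Among these, 62.7% held at least 15 CG dinucleotides, compared with 34.6% of all 32851 windows. The latter were not matched to the members by gene type or by distance to the GENCODE start, so the comparison is not one of span alone. The median CG count was 14 in the 42 members with the lowest density, 24.5 in the next 42 and 26 in the 42 with the highest. Windows are shown for the member with the most reads (*Exoc4*), for the members with the largest *Tet2*-KO gain and loss (*Nckap5* and *Cntnap5b*), and for a member whose share rose with EU time in both genotypes (*Enox1*). Each is written 5′ to 3′ on the strand of the gene, with capitals marking CG dinucleotides, which number 13 in *Exoc4*, 12 in *Nckap5*, 14 in *Cntnap5b* and 42 in *Enox1*. They lie at chr6:33248878-33249177 (plus strand), chr1:126830583-126830882 (minus strand), chr1:99772151-99772450 (plus strand) and chr14:77156513-77156812 (plus strand).
Exoc4: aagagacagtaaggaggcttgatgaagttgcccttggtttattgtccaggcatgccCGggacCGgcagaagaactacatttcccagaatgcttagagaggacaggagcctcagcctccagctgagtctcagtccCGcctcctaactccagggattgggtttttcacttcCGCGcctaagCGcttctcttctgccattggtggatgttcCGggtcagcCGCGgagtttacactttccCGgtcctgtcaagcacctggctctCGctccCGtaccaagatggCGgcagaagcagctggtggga
Nckap5: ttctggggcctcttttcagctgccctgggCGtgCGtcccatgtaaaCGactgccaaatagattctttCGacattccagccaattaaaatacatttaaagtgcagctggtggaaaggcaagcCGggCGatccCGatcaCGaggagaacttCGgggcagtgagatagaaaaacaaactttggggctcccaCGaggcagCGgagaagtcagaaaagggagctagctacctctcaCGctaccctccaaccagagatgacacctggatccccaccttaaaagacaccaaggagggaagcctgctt
Cntnap5b: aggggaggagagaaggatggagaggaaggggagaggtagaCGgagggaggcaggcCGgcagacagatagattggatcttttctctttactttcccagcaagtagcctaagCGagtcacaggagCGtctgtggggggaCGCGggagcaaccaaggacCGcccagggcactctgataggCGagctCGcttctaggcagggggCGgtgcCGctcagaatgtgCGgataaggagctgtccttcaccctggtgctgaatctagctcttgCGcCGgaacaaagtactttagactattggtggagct
Enox1: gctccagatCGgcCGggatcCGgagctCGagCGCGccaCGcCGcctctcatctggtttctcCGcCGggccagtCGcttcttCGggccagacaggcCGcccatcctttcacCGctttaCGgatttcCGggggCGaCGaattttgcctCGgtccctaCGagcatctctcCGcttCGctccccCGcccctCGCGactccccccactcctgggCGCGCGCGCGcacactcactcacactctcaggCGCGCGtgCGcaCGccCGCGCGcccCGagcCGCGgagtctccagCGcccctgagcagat
The window of *Exoc4* thus held fewer CG dinucleotides than the median of the densest members, and that of *Enox1* held more. Such a count describes the sequence and says nothing about its methylation, which was not measured here.

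The summed share of the members in gene reads was higher in *Tet2*-KO at each labelling time. In WT it was 1.86, 1.88 and 1.90% at 10 min, 2.03, 2.05 and 2.05% at 20 min and 1.92, 1.93 and 1.91% at 40 min. In *Tet2*-KO it was 2.14, 2.12 and 2.11% at 10 min, 2.10, 2.07 and 2.09% at 20 min and 2.14, 2.14 and 2.13% at 40 min. No *Tet2*-KO library fell within the range of WT libraries of its time, but the means were closest at 20 min, where the WT share peaked: 1.88 ± 0.0164% and 2.12 ± 0.0172% at 10 min, 2.04 ± 0.00899% and 2.09 ± 0.0151% at 20 min, and 1.92 ± 0.00746% and 2.13 ± 0.00312% at 40 min (WT and *Tet2*-KO, SD, n = 3).

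Per ERCC read, the members summed to 0.878 ± 0.0729 reads in WT at 10 min, 3.01 ± 0.184 at 20 min and 4.75 ± 0.214 at 40 min (SD, n = 3). The *Tet2*-KO values were 2.03 ± 0.113, 4.30 ± 0.240 and 8.48 ± 0.673. Every *Tet2*-KO library exceeded every WT library of its time. A line through the 3 times rose by 0.123 per min in WT (SE 0.0125, n = 9) and by 0.214 per min in *Tet2*-KO (SE 0.0105, n = 9), a ratio of 1.74 (SE 0.197), and the ratio for the other autosomal protein-coding genes was 1.55. The ratio was 1.07 between 10 and 20 min and 2.41 between 20 and 40 min, as the WT values rose more steeply between 10 and 20 min than between 20 and 40 min. This scale is relative to total RNA, and more cells carrying a transcript cannot be told apart from more labelled RNA per cell.

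**Figure D2:**
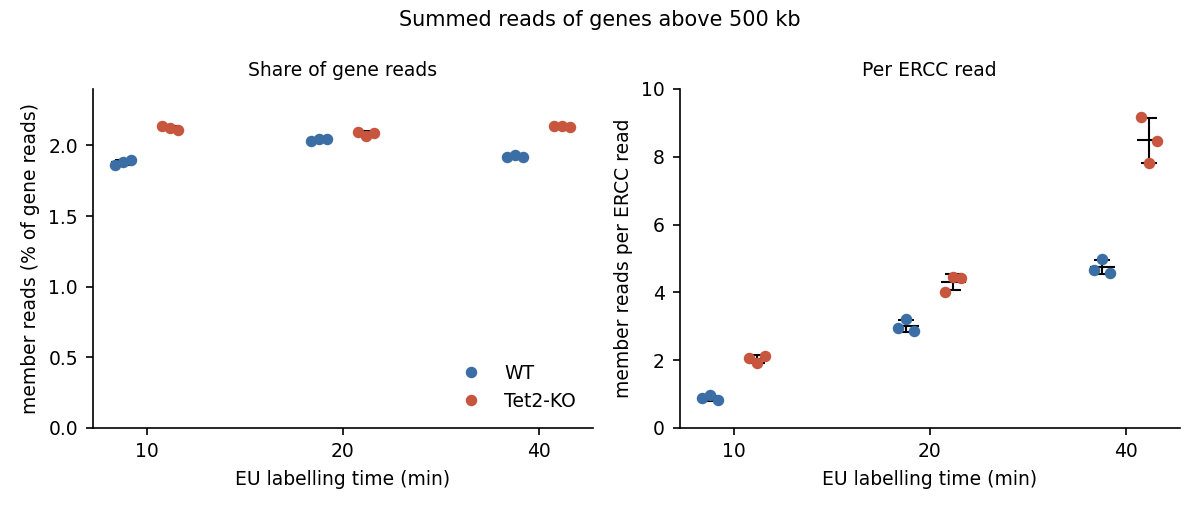
Summed reads of the members at 10, 20 and 40 min of EU, as % of gene reads (left) and per ERCC read (right). Points are libraries, bars the mean ± SD of 3, and times are spaced evenly. The *Tet2*-KO shares lie above the WT shares at each time, most narrowly at 20 min (means 2.09% and 2.04%), and both genotypes climb with time per ERCC read.

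Most members carried more labelled RNA in *Tet2*-KO per ERCC read, as did most genes. Averaged over the 3 times, 183 of 210 tested members were higher in *Tet2*-KO (edgeR's quasi-likelihood test, Benjamini-Hochberg adjusted p under 0.05), where 80.5% of all tested genes were called higher, and 8 were lower, where 4.15% were. The median log2 difference was 0.80 for the members and 0.70 for all tested genes. The lowest values belonged to *Cntnap5b* (-1.98), *Sgcz* (-1.26), *Inpp4b* (-0.85), *Slc9a9* (-0.82) and *Magi2* (-0.46). The highest belonged to *Nckap5* (4.20), *Nav3* (3.23), *Grm8* (2.90), *Lingo2* (2.79) and *Pkhd1* (2.33). Line by line, slopes were positive in both genotypes for all 210 tested members and steeper in *Tet2*-KO for 193, with a median ratio of 1.82 (quartiles 1.40 and 2.41). Over all tested genes, slopes were positive in both genotypes for 98.9% and steeper in *Tet2*-KO for 86.3%, compared with 91.9% of the members, and the median ratio was 1.55.

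As a share of gene reads, members moved both ways. Of 210, 89 were higher in *Tet2*-KO, against a background of 24.6% of all tested genes, and 68 were lower, against 32% of all tested genes. The members' calls thus made up 42.4% and 32.4% of those tested, and their median log2 difference was 0.06, compared with -0.04 for all tested genes. The split was not particular to genes above 500 kb. Of 719 tested autosomal protein-coding genes of 200 to 500 kb, 294 were higher and 244 lower. Of 1343 such genes of 100 to 200 kb, 538 were higher and 468 lower. In 56 members every *Tet2*-KO library lay above every WT library at each of the 3 times, which held for 11.8% of all tested genes, and in 39 members every one lay below, which held for 13.9%. On the 2 scales together, 89 members were higher on both, 8 were lower on both, and 42 were higher per ERCC read but lower as a share. The share of all tested genes in these combinations was not computed, so the counts only describe the members. *Mdga2* was the member called on neither scale, though it was called lower as a share (-0.39 to -0.44) when replicate 2 of *Tet2*-KO or of WT at 10 min, replicate 1 of WT at 20 min or replicate 3 of WT at 40 min was left out. The median share difference was 0.06 at 10 min, -0.02 at 20 min and 0.15 at 40 min.

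*Nckap5*, which encodes NCK-associated protein 5 (chr1:125913620-126830799, minus strand), had the largest gain. It had 5.56, 3.46 and 5.57 RPM in WT at 10 min, 4.63, 5.44 and 4.66 at 20 min and 3.64, 4.60 and 3.93 at 40 min, and in *Tet2*-KO 42.3, 46.4 and 44.6 at 10 min, 51.5, 51.8 and 50.7 at 20 min and 55.2, 58.4 and 56.8 at 40 min. The genotypes were far apart at every time, and its share was higher by 3.46 on the log2 scale (SE 0.06, adjusted p = 4.32e-31). The neuron navigator gene *Nav3* had 2.51, 2.47 and 3.60 RPM in WT at 10 min and 2.60, 2.89 and 2.67 at 40 min, and 13.2, 11.4 and 13.5 and 20.7, 19.8 and 21.1 in *Tet2*-KO, again without overlap, a difference of 2.49 (SE 0.08, adjusted p = 1.28e-23). The glutamate receptor gene *Grm8* (2.16), the leucine-rich repeat gene *Lingo2* (2.05) and *Pkhd1* (1.60), which encodes fibrocystin of the primary cilium, completed the 5 highest.

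*Cntnap5b* (chr1:99772765-100485942, plus strand), a contactin-associated protein gene, had the largest loss. It had 10.9, 12.5 and 8.99 RPM in WT at 10 min, 6.67, 7.71 and 7.41 at 20 min and 4.94, 5.73 and 3.64 at 40 min, and in *Tet2*-KO 1.33, 1.55 and 1.10 at 10 min, 1.48, 0.932 and 1.13 at 20 min and 0.739, 0.94 and 0.892 at 40 min. Its *Tet2*-KO libraries all lay below the WT libraries, with a log2 difference of -2.70 (SE 0.12, adjusted p = 4.66e-19), while the WT level itself was lower at 40 than at 10 min. The sarcoglycan gene *Sgcz* had 12.8, 13.6 and 14.4 RPM in WT at 10 min, 17.6, 18.5 and 18.6 at 20 min and 21.6, 22.3 and 23.5 at 40 min, compared with 5.43, 5.61 and 4.46 at 10 min, 4.39, 4.19 and 5.29 at 20 min and 3.59, 4.10 and 3.46 at 40 min in *Tet2*-KO. Its difference was -1.99 (SE 0.07, adjusted p = 1.09e-22), and the gap was wider at 40 than at 10 min. The phosphoinositide phosphatase gene *Inpp4b* (-1.58), the sodium-proton exchanger gene *Slc9a9* (-1.56) and the scaffold gene *Magi2* (-1.19) followed.

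**Figure D3:**
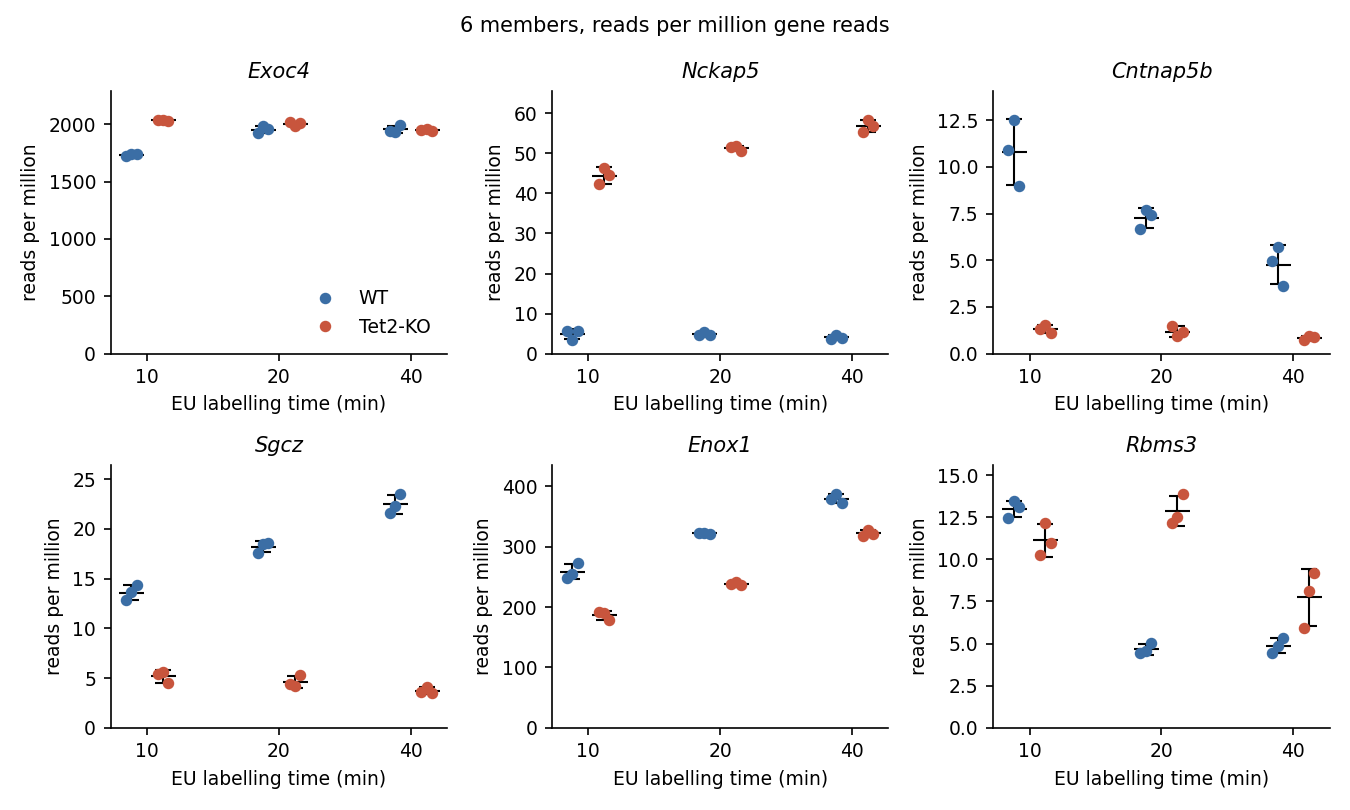
RPM for *Exoc4*, *Nckap5*, *Cntnap5b*, *Sgcz*, *Enox1* and *Rbms3* at 10, 20 and 40 min of EU in WT and *Tet2*-KO. Points are libraries, bars the mean ± SD of 3, and times are spaced evenly. *Nckap5* lies at a mean of 4.86 RPM in WT and 44.4 in *Tet2*-KO at 10 min, while the WT and *Tet2*-KO libraries of *Exoc4* overlap at 40 min.

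The members named for the most reads per kb of exon moved both ways. *Exoc4* had 1722, 1741 and 1739 RPM in WT at 10 min, 1924, 1982 and 1957 at 20 min and 1939, 1936 and 1992 at 40 min, and in *Tet2*-KO 2040, 2035 and 2025 at 10 min, 2020, 1984 and 2009 at 20 min and 1948, 1958 and 1945 at 40 min. The genotypes were apart at 10 min and overlapped at 40 min, and the mean difference was 0.09 (SE 0.01, adjusted p = 3.87e-10). *Immp2l* (0.52), *Etl4* (0.35), *Ptprg* (0.24) and *Gm20388* (0.20) were higher. *Magi1* (-0.43), *Hs6st3* (-0.20) and *Smyd3* (-0.10) were lower.

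Members were grouped by the role of their product, and a gene could belong to more than 1 group. Of 57 tested members for adhesion and axon guidance, 22 were higher and 17 lower in *Tet2*-KO as a share (38.6% and 29.8%), with a median of 0.07, where 24.6% and 32% of all tested genes were called. The teneurin *Tenm4* was higher by 0.69 and *Tenm3* by 0.13, while *Robo1*, a receptor for SLIT ligands, was lower, at -0.76. Of 27 for channels, receptors and their partners, 13 were higher and 6 lower (48.1% and 22.2%), median 0.18, with the ryanodine receptor gene *Ryr2* at 0.68, the presynaptic scaffold *Rims1* at 1.50 and the potassium channel subunit *Dpp6* at 0.28. The summed level of 10 neural markers differed between genotypes, at 53.1 to 68.2 RPM in WT and 34.5 to 44.4 in *Tet2*-KO. Only 3 of the 10 averaged at least 1 RPM (*Nes*, *Map2* and *Olig2*), and *Nes* and *Map2* held most of the sum. At 10 min the WT and *Tet2*-KO means were 35.8 and 27.7 RPM for *Nes* and 17.4 and 10.9 for *Map2*. *Sox1* and *Tubb3* were at 0, which does not show silence, since a gene inside another gene of its strand could draw no reads. The part of the neural markers in these differences was not tested.

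Of 11 receptor phosphatases and kinases, *Alk* (1.22), *Ptprt* (0.39), *Ptprg* (0.24) and *Ptprk* (0.21) were higher. *Epha6* (-0.59), *Ntrk3* (-0.36), *Ptprn2* (-0.23), *Ptprd* (-0.21) and *Fgfr2* (-0.06, not called at -0.02 with TMM factors) were lower. *Ptprn2* lost its call when *Tet2*-KO 20 min replicate 2 (-0.18), WT 10 min replicate 1 (-0.19) or WT 20 min replicate 3 (-0.20) was left out, and with TMM factors (-0.19). Of 17 transcription and RNA-binding factors, *Sox6* (1.12), *Foxp2* (0.90), *Rbms3* (0.63), *Adarb2* (0.36, not called at 0.25 without *Tet2*-KO 10 min replicate 1) and *Sox5* (0.23) were higher. For *Rbms3* this held for the mean of the times only: its *Tet2*-KO level lay below WT at 10 min and above it at 20 and 40 min. The summed feeder fibroblast markers, given below, had the same order at each time, and their part was not tested. Another 9 factors were lower, among them *Foxp1* (-0.59), *Camta1* (-0.12) and the homeobox gene *Zfhx3* (-0.11). Higher and lower calls made up 36.4% and 45.5% of the receptor phosphatases and kinases and 29.4% and 52.9% of the factors. Over all tested genes they made up 24.6% and 32%.

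Signalling enzymes and scaffolds, 43 members that held 38.1% of member reads, were higher in 21 and lower in 14 (48.8% and 32.6%, compared with 24.6% and 32% of all tested genes), with the polarity scaffold *Pard3* at 0.19. Of 20 genes at fragile sites, 7 were higher and 9 lower (35% and 45%), median -0.06. *Wwox*, an oxidoreductase gene at a fragile site, had 358, 373 and 384 RPM in WT at 10 min, 485, 483 and 489.8 at 20 min and 501, 508 and 504 at 40 min, and 293, 291 and 294 at 10 min, 291, 297 and 306 at 20 min and 348, 343 and 352 at 40 min in *Tet2*-KO. The *Tet2*-KO libraries lay below at all times, and the mean difference was -0.53 (SE 0.01, adjusted p = 1.24e-25). The members on no list numbered 60, of which 55 were tested, with 24 higher and 17 lower (43.6% and 30.9%).

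Some members lay among genes that were themselves lower in *Tet2*-KO. For each tested member, the other autosomal protein-coding genes that start within 5 Mb were taken, and 202 members had at least 10 such neighbours. The neighbours' median share difference had quartiles of -0.09 and 0.01 over these members. It was below -0.3 for *Lrrtm4* (-0.53), *Cntn4* (-0.51), *Magi1* (-0.50), *Fam19a1* (-0.48), *Cacna1c* (-0.45), *Grm7* (-0.41) and *Foxp1* (-0.40), all of them on chromosome 6. It was above 0.3 for *Fhit* (0.49), a diadenosine polyphosphate hydrolase gene on chromosome 14 whose own difference was 0.04. Just below that limit was *Sox5* on chromosome 6, with a neighbours' median of 0.28 and an own difference of 0.23.

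Along chromosome 6, the non-member genes that start between 80 and 100 Mb had a median of -0.54, with 126 of 138 below 0. Those between 100 and 120 Mb had -0.45, with 85 of 96 below 0, and those between 120 and 140 Mb had -0.46, with 125 of 147 below 0. The medians between 20 and 80 Mb were 0.01, 0.01 and 0.01, and beyond 140 Mb the median was 0.36 over 51 genes. The members' own differences in this stretch were -0.57 for *Lrrtm4*, -0.43 for *Magi1*, -0.66 for *Grm7* and -0.59 for *Foxp1*, which were called, -0.16 for *Cacna1c* and -0.01 for *Cntn4*, which were not, and 0.39 for *Fam19a1*, which was called higher. *Cacna1c* was called lower (-0.19 to -0.20) when replicate 2 of *Tet2*-KO at 10 min, replicate 1 of *Tet2*-KO at 20 min, replicate 3 of WT at 10 min, replicate 1 of WT at 20 min or replicate 3 of WT at 40 min was left out. Only 1 line of each genotype was studied, so a difference between these lines in this stretch cannot be told apart from the genotype, and DNA copy number was not measured. Without these 7 members, 88 of 203 were higher and 64 lower, an alternative added after the data were seen.

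**Figure D4:**
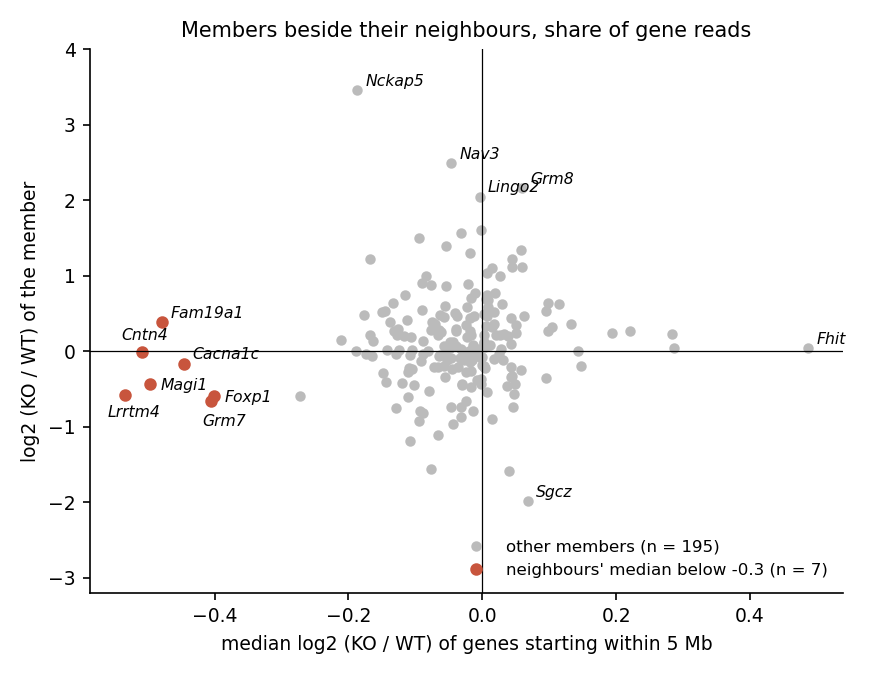
Log2 share difference, *Tet2*-KO over WT, of each member (vertical) against the median of the genes that start within 5 Mb of it (horizontal), for the 202 members with at least 10 neighbours. The 7 members in red lie on chromosome 6, with neighbours' medians from -0.53 to -0.40. *Nckap5*, *Nav3* and *Sgcz* stand far from 0 (3.46, 2.49 and -1.99), with neighbours' medians of -0.19, -0.05 and 0.07.

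Per ERCC read, labelled RNA of the members accumulated with EU time. From 10 to 40 min, 210 of 210 tested members rose in WT, where 96.7% of all tested genes were called, and 210 rose in *Tet2*-KO, where 94.7% were. The median log2 rise was 2.33 in WT (2.26 over all tested genes) and 2.08 in *Tet2*-KO (1.996 over all tested genes).

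As a share of gene reads, the change with time differed among members. In WT, 38 rose and 59 fell from 10 to 40 min, against backgrounds of 16.1% and 29.5% of all tested genes, with a median of -0.08 compared with -0.14 over all tested genes. In *Tet2*-KO, 54 rose and 42 fell, against backgrounds of 16.5% and 20%, with a median of 0.03 compared with -0.06. The split between rising and falling depended on the scaling. With TMM factors, which moved the median of autosomal protein-coding genes in WT from -0.10 to 0.00, 56 rose and 34 fell in WT (22.8% and 22% of all tested genes), and 65 rose and 32 fell in *Tet2*-KO (20.1% and 16.8% of all tested genes), so directions in this paragraph are relative to all gene reads.

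The genotypes, which share no library here, ordered the members broadly alike, as they did all tested genes. The change had the same sign in 163 of 210 members and in 14935 of 19910 genes, which are similar fractions. Pearson's r across members was 0.67 (Spearman's rho 0.69), compared with 0.50 (rho 0.59) over all tested genes. These genes were not matched to the members for depth. Members are not independent replicates, so this is a description. In 31 members (14.8%) the share rose in both genotypes, compared with 10.9% of all tested genes, and in 30 (14.3%) it fell in both, compared with 15.2%. In 4 members (1.90%) it was called in opposite directions, compared with 0.748% of all tested genes.

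**Figure D5:**
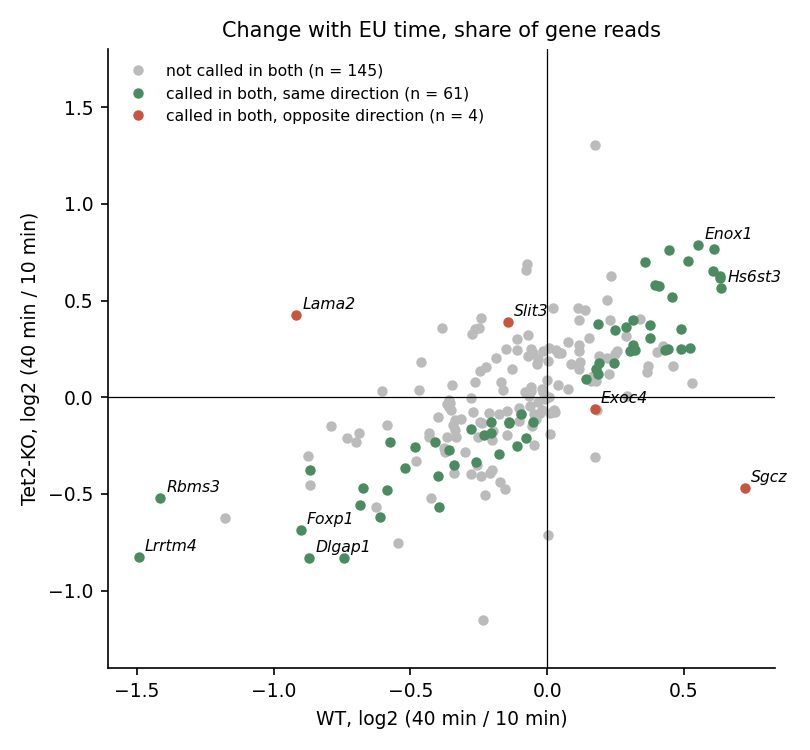
Log2 change of the share of gene reads from 10 to 40 min of EU in WT (horizontal) and *Tet2*-KO (vertical) for the 210 tested members. Green points were called in both genotypes in the same direction (61 members) and red points in opposite directions (4). Most points lie along the rising diagonal, at a Pearson's r of 0.67.

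*Enox1*, an oxidase gene, rose in both genotypes. It had 248, 256 and 273 RPM in WT at 10 min, 322, 324 and 321 at 20 min and 379, 387 and 372 at 40 min, and 192, 189 and 178 at 10 min, 238, 241 and 236 at 20 min and 318, 327 and 322 at 40 min in *Tet2*-KO. The times did not overlap in either genotype, and the share rose by 0.55 in WT (SE 0.03, adjusted p = 2.63e-16) and by 0.79 in *Tet2*-KO (SE 0.03, adjusted p = 1.79e-19). The galactosyltransferase gene *B3galt1* rose by 0.61 and 0.77, *5730522E02Rik* by 0.61 and 0.65, the calsyntenin gene *Clstn2* by 0.63 and 0.63 and *Nkain3* by 0.63 and 0.62. *Hs6st3*, at 213, 212 and 199 RPM at 10 min and 321, 323 and 325 at 40 min in WT, belonged to the same set, as did *Immp2l*, *Ptprg*, *Smyd3* and *Wwox*.

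*Rbms3*, an RNA-binding protein gene, fell in both genotypes but along different courses. It had 12.5, 13.4 and 13.1 RPM in WT at 10 min, 4.43, 4.54 and 5.03 at 20 min and 4.46, 4.85 and 5.34 at 40 min, and 10.2, 12.2 and 11.0 at 10 min, 12.2, 12.5 and 13.9 at 20 min and 5.91, 8.11 and 9.20 at 40 min in *Tet2*-KO. The WT level was high at 10 min only, whereas in *Tet2*-KO it stayed high at 20 min. The fall from 10 to 40 min was -1.41 on the log2 scale in WT (SE 0.14, adjusted p = 2.33e-10) and -0.52 in *Tet2*-KO (SE 0.13, adjusted p = 0.00218). The summed level of 8 feeder fibroblast markers was also high at 10 min only in WT, and in *Tet2*-KO it was highest at 20 min but alike at 10 and 40 min. It was 15.6 to 16.9 RPM in WT at 10 min, 2.98 to 3.59 at 20 min and 3.93 to 4.94 at 40 min, and 5.66 to 7.24, 11.3 to 12.8 and 5.49 to 6.64 in *Tet2*-KO. Of these markers 2 averaged at least 1 RPM (*Col1a1* and *Col1a2*), none was at 0 throughout, and their part in the course of *Rbms3* was not tested.

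The postsynaptic scaffold *Dlgap1* fell by 0.87 in WT and by 0.83 in *Tet2*-KO, and the forkhead factor *Foxp1* by 0.90 and 0.69. *Lrrtm4*, a synaptic leucine-rich repeat gene, fell by 1.49 and 0.83, and the teneurin gene *Tenm2* by 0.74 and 0.83. In *Tet2*-KO the call for *Lrrtm4* was lost without 10 min replicate 1 (-0.43) or 40 min replicate 1 (-0.70), and that for *Tenm2* without 10 min replicate 3 (-0.72) or 40 min replicate 3 (-0.60). In WT the call for *Tenm2* was lost without 10 min replicate 1 (-0.60).

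The 4 members called in opposite directions were *Exoc4*, *Sgcz*, *Lama2* and *Slit3*, of which *Lama2* and *Slit3* are named because of this result. *Sgcz* rose by 0.72 in WT and fell by 0.47 in *Tet2*-KO. *Exoc4* rose by 0.17 in WT and fell by 0.06 in *Tet2*-KO, and the latter was not called with TMM factors (-0.02). The laminin gene *Lama2* fell by 0.92 in WT and rose by 0.42 in *Tet2*-KO, though this rise was lost without 10 min replicate 2 (0.38) or 3 (0.30) or 40 min replicate 1 (0.36) or 2 (0.44), or with no filter on low counts (0.42). The summed feeder fibroblast markers also fell in WT, from 15.6 to 16.9 RPM at 10 min to 3.93 to 4.94 at 40 min. In *Tet2*-KO they were alike at these times (5.66 to 7.24 and 5.49 to 6.64), and their part in the course of *Lama2* was not tested. *Slit3*, which encodes a secreted guidance ligand, fell by 0.14 in WT and rose by 0.39 in *Tet2*-KO, and the WT fall was lost without 10 min replicate 1 (-0.09) or 2 (-0.14) or 40 min replicate 2 (-0.15) or 3 (-0.10), and with TMM factors (-0.04).

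Tested directly, the difference between genotypes changed from 10 to 40 min in few members. As a share of gene reads, 19 members had a *Tet2*-KO to WT difference that was higher at 40 than at 10 min and 10 had a lower one, against backgrounds of 5.89% and 3.36% of all tested genes, with a median of 0.09 compared with 0.06. With TMM factors these became 14 and 18, where 3.89% and 6.12% of all tested genes were called. The gains of *Nckap5* (0.62), *Nav3* (0.77), *Grm8* (0.73), *Lingo2* (0.65) and *Pkhd1* (0.39) widened with time, though the call was lost for *Nckap5* (0.51), *Nav3* (0.57) and *Lingo2* (0.58) when replicate 3 of WT at 10 min was left out. Per ERCC read, 42 members had a lower difference at 40 min, against a background of 19.3%, with a median of -0.26 compared with -0.29. This count was 22 when replicate 2 of *Tet2*-KO at 40 min was left out, 27 when replicate 3 of WT at 10 min was, 22 when replicate 2 of WT at 40 min was, and 26 with TMM factors among ERCC transcripts, where 11.4% of all tested genes were called. The share of all tested genes was not computed with these libraries left out.

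Structure of the gene was weakly related to either change. Across the 193 members with a mean of at least 50 reads, Spearman's rho between span and the *Tet2*-KO to WT share difference was 0.02, and that for the number of exon blocks was -0.03. With the change over time, averaged over genotypes, rho was -0.16 for span and -0.23 for exon blocks. In the 64 members with the fewest exon blocks (2 to 18) the median change with time was 0.00 in WT and 0.18 in *Tet2*-KO, and in the 65 with the most (29 to 147) it was -0.08 and -0.01. All points came from the same 18 libraries and the order also followed density, with a rho of 0.23 between reads per own kb and the change with time.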

How the data were processed

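Nascent RNA from 18 libraries was analysed, 3 for each of 2 genotypes and 3 EU times. The deposited values were raw read counts per gene, made by the authors with Trimmomatic 0.39, HISAT2 2.2.1 and HTSeq 0.12.4 on mm10 (tools and versions from the submitters' processing notes). The counting settings and strand option were not given in the sources used here, and the study names a GENCODE release other than the M21 release used for the rule, where 54409 of 54446 genes were found.

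Entries that name no gene were kept out of library sizes and tests: reads on no feature amounted to between 13.2 and 16.9% and ambiguous reads to between 2.3 and 2.5%. Groups came from the sample labels. A 2 by 3 design was fitted with edgeR 4.0.16 (R 4.3.3, limma 3.58.1) by the quasi-likelihood test on all 19910 genes kept by filterByExpr (minimum count 10). Library size was either the reads on 92 ERCC transcripts or all gene reads, p-values were Benjamini-Hochberg adjusted over all tested genes, and the threshold was 0.05. Log2 values carry the SE of the fit. Recovery was tested on simulated data.

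Replicates were separate dishes, so p-values measured only the spread between these samples, which may be technical. Samples with the same replicate number did not deviate together (median r -0.001, 45 pairs), so no block was used. DESeq2 1.42.0, TMM scaling, other filters, a replicate block and leaving out each library were tried as alternatives.

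The members, gene groups and marker lists were chosen with earlier results of these data known. Named genes were the 10 with the most reads per exon kb, the 5 longest, the 5 nearest the threshold on each side, the 5 highest and 5 lowest in *Tet2*-KO and over time among called members with a mean of at least 50 reads, and 3 per group by mean count. Others were named after their values were seen. Some genes that this rule names are not reported here. The 3 genes left out by the rule were not analysed here.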

Additional observations from a re-analysis of the deposited data

Results flagged for a closer look

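Named members were partly chosen by their calls for genotype or time, so the count given here is not a rate. Over all tested genes, the *Tet2*-KO to WT difference in the share of gene reads was called higher at 40 than at 10 min in 5.89% and lower in 3.36%. In 18 of the members named here this difference itself changed from 10 to 40 min (interaction term, edgeR's quasi-likelihood test, Benjamini-Hochberg adjusted over all tested genes). It was higher at 40 than at 10 min, on the log2 scale, for *Nckap5* (0.62, adjusted p = 0.0115), *Nav3* (0.765, adjusted p = 0.0121), *Grm8* (0.734, adjusted p = 0.00625), *Lingo2* (0.649, adjusted p = 0.0266), *Pkhd1* (0.394, adjusted p = 0.000121), *Rbms3* (0.893, adjusted p = 0.002), *Enox1* (0.236, adjusted p = 0.000317), *Cntnap2* (0.201, adjusted p = 0.0278), *Lama2* (1.342, adjusted p = 0.000297) and *Slit3* (0.532, adjusted p = 3.16e-05). It was lower at 40 min for *Exoc4* (-0.234, adjusted p = 1.02e-08), *Etl4* (-0.076, adjusted p = 0.0349), *Magi1* (-0.091, adjusted p = 0.0177), *Sgcz* (-1.195, adjusted p = 1.42e-05), *Zfhx3* (-0.202, adjusted p = 0.00099), *Camta1* (-0.141, adjusted p = 0.0276), *Pard3* (-0.131, adjusted p = 0.00433) and *Wwox* (-0.194, adjusted p = 0.000288).

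For 12 of these members the call held whichever single library was left out, though that for *Magi1* was lost with no filter on low counts (adjusted p = 0.0738). The call for *Cntnap2* was lost with TMM factors (0.14, adjusted p = 0.125), and that for *Etl4* with no filter (adjusted p = 0.113) and with the other autosomal protein-coding reads as library size (adjusted p = 0.0518). The call for *Etl4* was lost without *Tet2*-KO 10 min replicate 1, *Tet2*-KO 40 min replicate 1, *Tet2*-KO 40 min replicate 2, *Tet2*-KO 40 min replicate 3, WT 10 min replicate 1, WT 10 min replicate 2, WT 40 min replicate 1 or WT 40 min replicate 2 (adjusted p = 0.0553 to 0.103). The call for *Nckap5* was lost without WT 10 min replicate 1, WT 10 min replicate 3 or WT 40 min replicate 1 (adjusted p = 0.0533 to 0.0593). The call for *Nav3* was lost without WT 10 min replicate 3 (adjusted p = 0.0741). The call for *Lingo2* was lost without *Tet2*-KO 10 min replicate 2, *Tet2*-KO 40 min replicate 1, *Tet2*-KO 40 min replicate 3, WT 10 min replicate 3, WT 40 min replicate 1 or WT 40 min replicate 3 (adjusted p = 0.0579 to 0.0784). The call for *Cntnap2* was lost without *Tet2*-KO 10 min replicate 2, *Tet2*-KO 40 min replicate 1, *Tet2*-KO 40 min replicate 3, WT 10 min replicate 3 or WT 40 min replicate 3 (adjusted p = 0.0559 to 0.0903). The call for *Camta1* was lost without *Tet2*-KO 10 min replicate 2, *Tet2*-KO 40 min replicate 1, *Tet2*-KO 40 min replicate 2, WT 10 min replicate 2 or WT 40 min replicate 2 (adjusted p = 0.072 to 0.0827). In WT, *Rbms3* and the feeder fibroblast markers were both high at 10 min only, while in *Tet2*-KO the markers were alike at 10 and 40 min and *Rbms3* was not, and their part was not tested. The markers also fell in WT from 10 to 40 min, as *Lama2* did, and their part in this was not tested either. *Exoc4*, *Sgcz*, *Lama2* and *Slit3* were called in opposite directions over time in the genotypes.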

How the results depend on the processing

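Of the comparisons across members and the summed values, 430 of 444 recomputed values stayed within their limits. This count does not measure robustness, because part of it was fixed in advance. The limit for a summed share was the SD of its group, which the mean without a single library cannot exceed. Leaving out a library of 1 genotype also bears little on a change with time within the other. With TMM factors among ERCC transcripts the members with a *Tet2*-KO to WT difference lower at 40 min per ERCC read came to 12.4% instead of 20%, and leaving out single libraries gave 10.5 to 29.0%. With TMM factors on gene reads the members that fell in WT came to 16.2%, and those whose genotype difference fell to 8.57%. Without *Exoc4* the summed share was 1.71, 1.85 and 1.73% in WT and 1.92, 1.89 and 1.94% in *Tet2*-KO at 10, 20 and 40 min. The slope ratio was 1.07 from 10 and 20 min and 2.41 from 20 and 40 min, and 1.65 to 1.84 with single libraries left out. *Cntnap2* changed sign with TMM factors (0.00978), as did *Cntn4* (0.0274, and -0.0439 to 0.0567 with single libraries left out), and neither was called. The cause of these shifts was not tested. A replicate block, although the numbers did not pair the samples, moved the 13 counts of calls by at most 3.33 percentage points, from 20% to 16.7%, with 43.8% instead of 42.4% of members higher in *Tet2*-KO as a share. Of 123 values for named genes, 22 changed call or sign under at least 1 alternative. Depth limited the members below 50 reads per library, and ERCC reads, as few as 44162, limited the values per ERCC read.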
